A study of Mus musculus with 12 samples.

Results

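Enzymes that break down amino acids were followed in the livers of wild-type mice and of mice without ATF6a after tunicamycin (TM) or vehicle. The set held 41 genes of amino acid breakdown, listed by pathway, and 38 of them were measured among 18193 genes on the arrays. Where several probe sets were linked to a gene's symbol alone, the brightest on average over the 12 arrays stood for the gene. Sds, Sdsl and Amt had no such probe set and were not analysed here. ATF6a, held in the membrane of the endoplasmic reticulum (ER), is cut when unfolded proteins build up, and the freed piece is a transcription factor, and TM blocks N-linked glycosylation in the ER. RNA of whole liver homogenate was put on Affymetrix arrays, 1 animal to an array, from 3 animals in each of 4 groups. Those groups were Atf6a +/+ (wild-type) mice given 150 mM dextrose as vehicle, Atf6a +/+ mice given TM at 1 mg/kg in the same vehicle, and Atf6a-/- mice given vehicle or TM in the same way. All injections were into the peritoneum, and livers were taken 34 h later. The source label of the samples reads 8 h where titles and protocol read 34 h, and 34 h is used here. Mice of both genotypes varied in age and sex, neither of which is given per animal, and they had been fasted before sacrifice. The labels do not say which part of Atf6 is deleted. Comparisons asked how each genotype responded to TM, whether the genotypes differed with and without TM, and whether the responses differed.

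The liver degrades most amino acids that are not used for protein. Most routes open with removal of nitrogen or with oxidation of a ring or side chain, and they end in pyruvate, acetyl-CoA, acetoacetate or intermediates of the citric acid cycle. Tryptophan, phenylalanine and tyrosine, histidine and lysine are broken down mainly in hepatocytes, and enzymes such as tyrosine aminotransferase and tryptophan dioxygenase are known for their control by glucocorticoids and by feeding. Branched-chain amino acids are transaminated mainly outside the liver, whereas the dehydrogenase complex for their keto acids is active in it.

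All values are log2 levels as deposited, and changes are log2 differences of group means with the standard error (SE) of limma. Genes were called higher or lower at a Benjamini-Hochberg adjusted p under 0.05 over 45037 probe sets and a difference over 1.5-fold. Atf6 itself, by its brightest probe set, had mean levels of 8.48 and 6.78 in wild-type and Atf6a-/- vehicle livers and of 9.51 and 9.55 after TM, and whether its 3 probe sets lie inside the deleted part is not known. By that probe set the genotypes separated after vehicle and overlapped after TM, and by the other 2 Atf6a-/- livers were the higher after TM, without overlap (means of 9.06 against 7.62 and of 8.84 against 8.31). Wild-type TM animal 2 was the lowest of its 3 animals for 37 of the 38 enzymes, with a mean difference of -0.97 from the wild-type vehicle mean against -0.15 and -0.36 for animals 1 and 3. Xist was high in animal 1 of each group except wild-type TM, where it was high in none. Spike-in controls averaged 9.35 and 9.28 on wild-type and Atf6a-/- vehicle arrays and 9.003 and 8.798 on the TM arrays of each. The log2 difference between the 3' and 5' actin control probe sets was 0.88 to 1.00 in Atf6a-/- TM livers and 1.00 to 1.32 in the other groups. Refits on the spike-in controls, with Xist as a covariate and without each animal were among the alternatives tried. Beyond those refits the part of these differences in the results was not tested.

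Most enzymes of amino acid breakdown fell after TM in Atf6a-/- livers, and few did in wild-type livers. In Atf6a-/- livers 29 of 38 enzymes fell and 0 rose, with a median change of -1.69, whereas the median over all 18193 genes was -0.01. Among all genes 12.8% fell and 15.2% rose in the same comparison. All 29 fell by more than 2-fold, 15 of them by more than 4-fold and 8 by more than 10-fold. In wild-type livers 6 enzymes fell and 0 rose, with a median of -0.40 against -0.02 for all genes, of which 3.86% fell and 3.45% rose. These 6 were Haao, Uroc1, Hibadh, Pcca, Csad and Cdo1, and the first 5 fell in Atf6a-/- livers as well. At an unadjusted p under 0.05 in either direction the counts were 20 of 38 in wild-type and 31 of 38 in Atf6a-/- livers. The shares of all genes, also in either direction, were 22.6% and 44.5%. The wild-type count took in Gpt and Gpt2, which were higher after TM, and the Atf6a-/- count took in Amdhd1, also higher. For 27 enzymes all 3 Atf6a-/- TM animals lay below each of the other 9 animals, as they did for 12% of all genes. From homogenate, fewer hepatocytes and less RNA per hepatocyte cannot be told apart. The count of 6 in wild-type livers dropped to 3 when vehicle animal 2, vehicle animal 3 or TM animal 2 of that genotype was left out. With the arrays set on the spike-in controls the median of all genes moved to 0.33 for wild-type mice and to 0.46 for Atf6a-/- mice. Enzymes called were then 2 higher and 4 lower for the former, and 3 higher and 29 lower for the latter. Shares of all genes called in that setting are not given here, so these counts stand without a background.

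**Figure D1:**
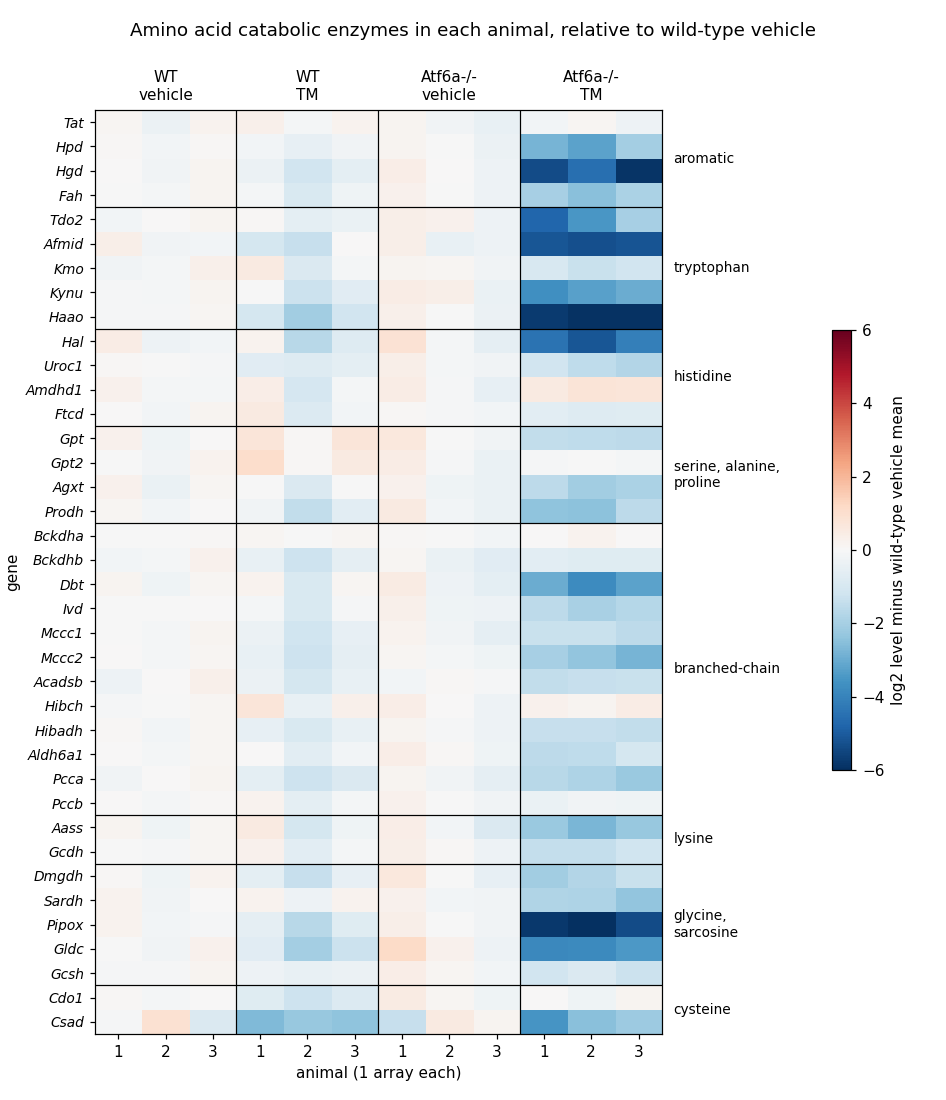
Log2 level of 38 enzyme genes (rows, by pathway) in each of 12 animals (columns, by group) minus the mean of wild-type vehicle livers, with blue for lower and red for higher levels. The 3 Atf6a-/- TM columns are the darkest, with all 3 animals below the other 9 for 27 of 38 enzymes and for 12% of all genes, while Tat and Bckdha stay near white.

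Of the genes for tyrosine breakdown, 3 of 4 fell in Atf6a-/- livers and 0 of 4 in wild-type livers, with medians of -2.36 and -0.36. Hgd encodes homogentisate dioxygenase, which opens the aromatic ring. Its levels were 13.03, 12.77 and 13.14 in wild-type vehicle, 12.63, 11.84 and 12.40 in wild-type TM, 13.37, 13.002 and 12.66 in Atf6a-/- vehicle and 7.59, 8.44 and 7.11 in Atf6a-/- TM livers. The last group lay far below the other groups, which reached down to 11.84, and the change was -5.30 ± 0.31 in Atf6a-/- livers (39.3-fold lower, adjusted p = 1.81e-07) and -0.69 ± 0.31 in wild-type livers (adjusted p = 0.258). A dimmer second probe set of Hgd fell by 1.97 in Atf6a-/- livers. Hpd, for the dioxygenase that makes homogentisate, stood at 14.35, 14.14 and 14.36 in wild-type vehicle, 14.12, 13.77 and 14.06 in wild-type TM, 14.43, 14.26 and 13.93 in Atf6a-/- vehicle and 11.49, 11.07 and 12.24 in Atf6a-/- TM livers. It was 6.08-fold lower after TM in Atf6a-/- livers (-2.60 ± 0.24, adjusted p = 6.11e-06) with no overlap, and in wild-type livers the difference was -0.30 ± 0.24 (adjusted p = 0.604). Fah, for the hydrolase of the last step, measured 12.90, 12.79 and 13.10 in wild-type vehicle, 12.80, 12.02 and 12.69 in wild-type TM, 13.20, 12.92 and 12.63 in Atf6a-/- vehicle and 10.92, 10.42 and 11.05 in Atf6a-/- TM livers, and it changed by -2.12 ± 0.22 in Atf6a-/- livers (4.35-fold, adjusted p = 1.66e-05) and by -0.43 ± 0.22 in wild-type livers (adjusted p = 0.362). The first enzyme of the route did not follow the later ones. Tat, for tyrosine aminotransferase, was at 13.23, 12.78 and 13.31 in wild-type vehicle, 13.41, 12.998 and 13.32 in wild-type TM, 13.28, 12.89 and 12.64 in Atf6a-/- vehicle and 12.92, 13.24 and 12.81 in Atf6a-/- TM livers, all 4 groups overlapping, with a change of 0.05 ± 0.19 in Atf6a-/- livers (95% interval -0.37 to 0.48, adjusted p = 0.886).

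Of the kynurenine route of tryptophan breakdown, which supplies precursors of NAD, the 5 listed enzymes that were measured all fell in Atf6a-/- livers, with a median of -3.51, and 1 of 5 fell in wild-type livers, with a median of -0.67. Haao encodes the dioxygenase that turns hydroxyanthranilate towards quinolinate. It measured 12.49, 12.48 and 12.64 in wild-type vehicle, 11.48, 10.44 and 11.41 in wild-type TM, 12.83, 12.53 and 12.20 in Atf6a-/- vehicle and 6.80, 6.59 and 6.61 in Atf6a-/- TM livers. The wild-type TM animals lay between the vehicle animals and the Atf6a-/- TM animals without overlap on either side. Haao fell 57.8-fold in Atf6a-/- livers (-5.85 ± 0.24, adjusted p = 1.67e-08), to 1.73% of the vehicle level, and 2.69-fold in wild-type livers (-1.43 ± 0.24, adjusted p = 0.00346), to 37.1%. Of the 38 enzymes it had the largest fall in Atf6a-/- livers and ranked 35 among the falls of all 18193 genes. Afmid, for the formamidase of the second step, was at 10.92, 10.33 and 10.40 in wild-type vehicle, 9.497, 9.18 and 10.58 in wild-type TM, 10.91, 10.10 and 10.25 in Atf6a-/- vehicle and 5.41, 5.26 and 5.35 in Atf6a-/- TM livers. Its Atf6a-/- TM animals were close together and far below the rest (-5.08 ± 0.32, 33.8-fold, adjusted p = 3.07e-07), while wild-type TM animals 1 and 2 lay below all vehicle animals and animal 3 among them (-0.80 ± 0.32, adjusted p = 0.19, and 0.0135 without animal 3). The Atf6a-/- TM mean of Afmid, 5.34, lay near 4.71, the highest array median, so the size of that fold is less sure. Tdo2, for the dioxygenase that opens the route, had levels of 13.73, 13.91 and 14.03 in wild-type vehicle, 13.94, 13.31 and 13.47 in wild-type TM, 14.22, 14.15 and 13.60 in Atf6a-/- vehicle and 9.14, 10.41 and 11.88 in Atf6a-/- TM livers. The 3 Atf6a-/- TM animals spread widely (SD 1.37) yet all lay below every other animal (-3.51 ± 0.50, 11.4-fold, adjusted p = 1.66e-04), and the wild-type difference was -0.32 ± 0.50 (adjusted p = 0.825). With its other probe sets the Atf6a-/- change was -4.62 and -5.20. Kynu, for kynureninase, fell by 3.43 and Kmo, for kynurenine monooxygenase, by 1.19 in Atf6a-/- livers. A dimmer second probe set of Kynu was called in neither genotype. It changed by -0.89 in Atf6a-/- livers (adjusted p = 0.1005) and by 1.33 in wild-type livers (adjusted p = 0.0552). The other probe sets of Afmid changed by -4.74, -1.66 and -0.03 in Atf6a-/- livers, the last with a mean level of only 3.03.

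Promoters of Haao, Pipox and Hgd, the 3 enzymes with the largest falls, and of Tat, which was not called, are shown to set members that fell most beside one that did not pass the test. The bases given are the 250 before the start of transcription, 5′ to 3′ on the strand of the gene, from RefSeq on GRCm38.p6, with the searched motif letters in capitals. 
Haao, chr17:83846791-83847040, minus strand: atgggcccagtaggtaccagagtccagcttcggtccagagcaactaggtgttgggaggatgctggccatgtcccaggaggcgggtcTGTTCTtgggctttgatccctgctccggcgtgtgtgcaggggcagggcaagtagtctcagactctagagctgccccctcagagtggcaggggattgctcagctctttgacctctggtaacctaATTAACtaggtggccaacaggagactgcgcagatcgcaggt
Pipox, chr11:77893873-77894122, minus strand: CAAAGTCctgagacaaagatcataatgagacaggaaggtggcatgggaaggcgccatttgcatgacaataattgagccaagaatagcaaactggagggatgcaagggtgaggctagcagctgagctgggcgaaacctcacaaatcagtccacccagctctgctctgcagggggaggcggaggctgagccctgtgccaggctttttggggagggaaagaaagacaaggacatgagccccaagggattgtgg
Hgd, chr16:37579903-37580152, plus strand: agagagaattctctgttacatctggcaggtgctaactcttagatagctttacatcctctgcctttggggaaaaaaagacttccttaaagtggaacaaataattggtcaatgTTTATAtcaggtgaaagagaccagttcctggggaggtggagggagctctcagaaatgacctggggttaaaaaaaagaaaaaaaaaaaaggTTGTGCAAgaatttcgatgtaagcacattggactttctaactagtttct
Tat, chr8:109990186-109990435, plus strand: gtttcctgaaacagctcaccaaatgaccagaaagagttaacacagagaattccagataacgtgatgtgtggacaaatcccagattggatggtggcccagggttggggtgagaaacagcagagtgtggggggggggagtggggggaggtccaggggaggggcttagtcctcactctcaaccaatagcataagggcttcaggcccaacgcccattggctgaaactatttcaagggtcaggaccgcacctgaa

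Capitals mark TGTTCT, a glucocorticoid receptor half-site, and ATTAAC, the reverse of the HNF1 half-site GTTAAT, in Haao. They mark the HNF4 letters CAAAGTC at the far end of the Pipox window, and the TATA box letters in reverse and TTGTGCAA, a match to the C/EBP letters TTGCNNAA in reverse, in Hgd. The Tat window held none of the 6 motifs. Over the 35 members with a window, searched on both strands, CAAAGTC stood in 2 (5.71%, against 4.33% of 27025 genes) and TTGCNNAA in 5 (14.3% against 10.8%). GTTAAT stood in 3 (8.57% against 7.49%), TGTTCT in 4 (11.4% against 18.2%), TATAAA in 4 (11.4% against 14.3%) and the ATF4-type letters TGATGNAA in 0 (against 3.91%). Of the 35 members with a window 26 had fallen in Atf6a-/- livers. They included the 5 members with the C/EBP letters and both with the HNF4 letters, 1 of 3 with the HNF1 half-site, 2 of 4 with the glucocorticoid receptor half-site and 3 of 4 with TATAAA. A match is a description of letters only.

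Histidine genes were split: 2 of 4 fell in Atf6a-/- livers, 2 were not called, and 1 of 4 fell in wild-type livers. Hal encodes histidine ammonia-lyase, the entry step. Its levels were 11.99, 11.22 and 11.39 in wild-type vehicle, 11.74, 9.90 and 10.77 in wild-type TM, 12.40, 11.41 and 10.9996 in Atf6a-/- vehicle and 7.09, 6.39 and 7.43 in Atf6a-/- TM livers, and it fell 24.8-fold in Atf6a-/- livers (-4.63 ± 0.46, adjusted p = 1.05e-05). Wild-type TM animals ran from inside the vehicle range to below it (-0.73 ± 0.46, adjusted p = 0.47). Uroc1, for urocanate hydratase, measured 10.504, 10.39 and 10.36 in wild-type vehicle, 9.74, 9.65 and 9.84 in wild-type TM, 10.79, 10.30 and 10.19 in Atf6a-/- vehicle and 9.28, 8.90 and 8.66 in Atf6a-/- TM livers. Both responses separated from vehicle, by -1.48 ± 0.17 in Atf6a-/- livers (adjusted p = 3.69e-05) and by -0.68 ± 0.17 in wild-type livers (adjusted p = 0.0374), a call lost when any 1 of 8 arrays was left out, the 6 wild-type ones and animal 2 of each Atf6a-/- group (adjusted p 0.0523 to 0.111). A second probe set of Uroc1, which may match several transcripts, stood at 5.38, 5.26 and 5.29 in Atf6a-/- TM livers against 11.37, 10.94 and 10.71 after vehicle, a change of -5.70 (adjusted p = 4.33e-09), so that the 2 probe sets differ in size but not in direction. Amdhd1, for imidazolonepropionase of the third step, was at 11.04, 10.65 and 10.67 in wild-type vehicle, 11.19, 9.79 and 10.68 in wild-type TM, 11.24, 10.72 and 10.32 in Atf6a-/- vehicle and 11.33, 11.58 and 11.501 in Atf6a-/- TM livers. Its Atf6a-/- TM animals were the highest of all 12 animals, but the change of 0.71 ± 0.31 was not called (95% interval 0.04 to 1.38, adjusted p = 0.115, and 0.0273 without wild-type TM animal 2). Ftcd, for the last enzyme of the route, changed by -0.65 ± 0.25 in Atf6a-/- livers (adjusted p = 0.0751). Without wild-type TM animal 1 its adjusted p was 0.00733, and without animal 2 it was 0.00816.

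Among the alanine, glyoxylate and proline enzymes 3 of 4 fell in Atf6a-/- livers, with a median of -1.69, and 0 of 4 were called in wild-type livers, with a median of 0.10. Prodh, for proline dehydrogenase, stood at 11.59, 11.31 and 11.495 in wild-type vehicle, 11.28, 9.9997 and 10.84 in wild-type TM, 11.98, 11.29 and 11.08 in Atf6a-/- vehicle and 9.05, 9.01 and 9.89 in Atf6a-/- TM livers. It was 4.4-fold lower in Atf6a-/- livers (-2.14 ± 0.33, adjusted p = 3.29e-04), and all 3 wild-type TM animals also lay below their vehicle group (-0.76 ± 0.33, adjusted p = 0.245). Agxt, for alanine-glyoxylate aminotransferase, measured 12.33, 11.69 and 12.20 in wild-type vehicle, 12.07, 11.22 and 12.05 in wild-type TM, 12.33, 11.82 and 11.69 in Atf6a-/- vehicle and 10.52, 10.01 and 10.16 in Atf6a-/- TM livers and was 3.29-fold lower in Atf6a-/- livers (-1.72 ± 0.26, adjusted p = 2.57e-04). The wild-type groups of Agxt overlapped (-0.30 ± 0.26, adjusted p = 0.636). Gpt, for the cytosolic alanine aminotransferase, was at 12.37, 11.88 and 12.16 in wild-type vehicle, 12.85, 12.21 and 12.87 in wild-type TM, 12.78, 12.13 and 11.92 in Atf6a-/- vehicle and 10.65, 10.61 and 10.59 in Atf6a-/- TM livers, so that the Atf6a-/- TM animals were close together and below all others. After TM Gpt differed by 0.50 ± 0.23 in wild-type livers (adjusted p = 0.264), whereas it fell in Atf6a-/- livers (-1.66 ± 0.23, adjusted p = 1.23e-04). Gpt2, for the mitochondrial aminotransferase, differed by 0.55 ± 0.24 and -0.06 ± 0.24 and was called in neither. Probe sets of Gpt and Gpt2, and of Hibadh and Hibch among the branched-chain genes, carry a suffix for possible matches to several transcripts. The only probe set of Acadsb carries another suffix, for possible matches to unrelated sequences.

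Branched-chain amino acid breakdown was the largest group, and 8 of its 12 genes fell in Atf6a-/- livers (median -1.34) and 2 in wild-type livers (median -0.50). Dbt encodes the core subunit of the branched-chain keto acid dehydrogenase. Its levels were 9.94, 9.52 and 9.91 in wild-type vehicle, 9.997, 8.86 and 9.90 in wild-type TM, 10.26, 9.502 and 9.20 in Atf6a-/- vehicle and 6.82, 6.02 and 6.58 in Atf6a-/- TM livers. With no overlap it fell 9.06-fold in Atf6a-/- livers (-3.18 ± 0.33, adjusted p = 1.56e-05), against -0.20 ± 0.33 in wild-type livers, where the groups overlapped (adjusted p = 0.832). Mccc2, for the smaller subunit of methylcrotonyl-CoA carboxylase in leucine breakdown, measured 9.66, 9.53 and 9.77 in wild-type vehicle, 9.19, 8.42 and 9.13 in wild-type TM, 9.76, 9.53 and 9.38 in Atf6a-/- vehicle and 7.67, 7.30 and 6.88 in Atf6a-/- TM livers. It was 4.83-fold lower in Atf6a-/- livers (-2.27 ± 0.22, adjusted p = 9.61e-06), and in wild-type livers the groups separated without passing the test (-0.74 ± 0.22, adjusted p = 0.0759). Pcca, for the biotin-bearing subunit of propionyl-CoA carboxylase, was at 10.54, 10.76 and 10.90 in wild-type vehicle, 10.15, 9.496 and 9.86 in wild-type TM, 10.89, 10.53 and 10.21 in Atf6a-/- vehicle and 9.05, 8.87 and 8.501 in Atf6a-/- TM livers, with falls in both genotypes (-1.74 ± 0.21, adjusted p = 4.51e-05, and -0.90 ± 0.21, adjusted p = 0.023). The wild-type call of Pcca was lost without wild-type vehicle animal 2 or 3 or TM animal 2 or 3 (adjusted p 0.0593 to 0.0953), and a dim second probe set of Pcca showed -0.08 in Atf6a-/- livers. The other 5 fallen genes, Ivd, Mccc1, Acadsb, Hibadh and Aldh6a1, changed by -1.66 to -1.23 in Atf6a-/- livers, and Hibadh was called in wild-type livers too (adjusted p 0.0810 to 0.1004 when vehicle animal 1, vehicle animal 3 or TM animal 2 was left out). They serve the middle steps of leucine, isoleucine and valine breakdown. Bckdha, Bckdhb, Hibch and Pccb were not called, with changes from -0.37 to 0.24 in Atf6a-/- livers. Bckdha, for a subunit of the decarboxylase part of that complex, was the steadiest of these, with 11.56, 11.46 and 11.34 after vehicle and 11.49, 11.68 and 11.52 after TM (0.11 ± 0.09, 95% interval -0.09 to 0.32).

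Partner subunits of 1 enzyme moved by unequal amounts in 5 pairs. Their difference within an array is free of a constant shift of that array, though not of the quantile normalization of the deposited values. The log2 difference Dbt minus Bckdha, set to 0 at the wild-type vehicle mean, was 0.41, -0.26 and -0.44 in Atf6a-/- vehicle livers and -2.97, -3.96 and -3.23 after TM. Its change was -3.29 in Atf6a-/- livers, without overlap, and -0.26 in wild-type livers. Against Bckdhb the change was -2.81 and 0.54. In every pair the subunit that fell further in Atf6a-/- livers is written first, so the shared sign there follows from that order. Pcca minus Pccb changed by -1.42 in Atf6a-/- and by -0.73 in wild-type livers, Gldc minus Gcsh of the glycine cleavage system by -2.85 and -0.96, and Mccc2 minus Mccc1 by -1.04 and -0.06. In each of the 5 differences the Atf6a-/- groups did not overlap. Bckdhb and Bckdha, also of 1 complex, were not set against each other. Bckdhb changed by -0.37 in Atf6a-/- and by -0.74 in wild-type livers, and Bckdha by 0.11 and 0.06. So the 5 differences do not cover every measured pair of 1 enzyme. They are descriptions with no test, and they show unequal change and not that a partner stayed the same.

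**Figure D2:**
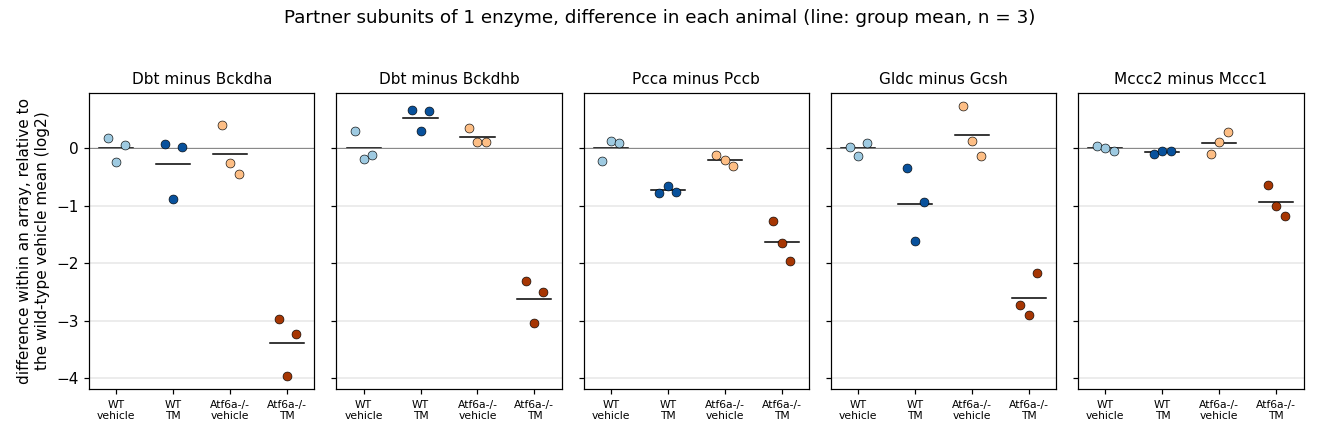
Log2 difference of partner subunits within each array (vertical axis, relative to the wild-type vehicle mean), with a point per animal, a line at the group mean and the 4 groups along the horizontal axis. Atf6a-/- TM animals lie lowest in all 5 panels, with group means from -3.39 for Dbt minus Bckdha to -0.94 for Mccc2 minus Mccc1. The gene that fell further in Atf6a-/- livers comes first in each difference, so the shared direction follows from that order.

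Both measured lysine genes fell in Atf6a-/- livers, and neither was called in wild-type livers. Aass, for the bifunctional enzyme of the first lysine steps, stood at 11.37, 10.98 and 11.34 in wild-type vehicle, 11.78, 10.18 and 10.99 in wild-type TM, 11.65, 11.05 and 10.38 in Atf6a-/- vehicle and 8.99, 8.51 and 8.97 in Atf6a-/- TM livers. Animals of the wild-type TM group spread from above to below their controls (-0.25 ± 0.37, adjusted p = 0.815), and the Atf6a-/- TM animals lay below all others (-2.20 ± 0.37, 4.61-fold, adjusted p = 6.23e-04). Gcdh, for glutaryl-CoA dehydrogenase, measured 11.496, 11.47 and 11.64 in wild-type vehicle, 11.79, 10.91 and 11.42 in wild-type TM, 11.91, 11.61 and 11.25 in Atf6a-/- vehicle and 10.10, 10.10 and 10.33 in Atf6a-/- TM livers, a change of -1.41 ± 0.21 in Atf6a-/- livers (2.66-fold, adjusted p = 2.18e-04) and of -0.16 ± 0.21 in wild-type livers (adjusted p = 0.776).

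Glycine and sarcosine genes fell in Atf6a-/- livers without exception among the 5 measured (median -1.99), and 0 of 5 were called in wild-type livers (median -0.83). Pipox encodes a peroxisomal oxidase of pipecolate and sarcosine. It was at 11.60, 11.21 and 11.33 in wild-type vehicle, 10.85, 9.72 and 10.67 in wild-type TM, 11.73, 11.38 and 11.18 in Atf6a-/- vehicle and 5.58, 5.27 and 6.02 in Atf6a-/- TM livers. The fall to 1.79% of the vehicle level in Atf6a-/- livers (-5.81 ± 0.28, 55.9-fold, adjusted p = 4.65e-08) ranked 37 among all genes. The Atf6a-/- TM mean of Pipox, 5.62, also lay near the highest array median of 4.71, so the size of that fold is less sure. In wild-type livers the groups separated, yet the difference was not called (-0.97 ± 0.28, adjusted p = 0.0621, and 0.032 without TM animal 1). Gldc, for the decarboxylase of the glycine cleavage system, measured 9.73, 9.56 and 10.03 in wild-type vehicle, 9.10, 7.73 and 8.48 in wild-type TM, 10.93, 10.03 and 9.47 in Atf6a-/- vehicle and 5.89, 5.98 and 6.32 in Atf6a-/- TM livers. Its Atf6a-/- change was -4.08 ± 0.36 (16.9-fold, adjusted p = 4.64e-06), and its wild-type change of -1.34 ± 0.36 just missed the threshold (adjusted p = 0.0502, and 0.0187 to 0.0341 without wild-type TM animal 1 or Atf6a-/- vehicle animal 1 or 3). Sardh, for sarcosine dehydrogenase, had levels of 12.40, 11.98 and 12.24 in wild-type vehicle, 12.41, 11.90 and 12.41 in wild-type TM, 12.49, 12.05 and 12.02 in Atf6a-/- vehicle and 10.39, 10.34 and 9.84 in Atf6a-/- TM livers. It differed by 0.03 ± 0.20 in wild-type livers (adjusted p = 0.967) and fell by 1.99 in Atf6a-/- livers (SE 0.20, adjusted p = 9.90e-06). Dmgdh, for the dehydrogenase one step before it, fell by 1.79 and Gcsh, for the lipoyl carrier of glycine cleavage, by 1.23 in Atf6a-/- livers.

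Both cysteine genes fell in wild-type livers, and 1 of 2 fell in Atf6a-/- livers. Csad, for the decarboxylase that makes hypotaurine, stood at 9.73, 10.68 and 8.93 in wild-type vehicle, 7.12, 7.49 and 7.38 in wild-type TM, 8.38, 10.30 and 9.92 in Atf6a-/- vehicle and 6.23, 7.28 and 7.61 in Atf6a-/- TM livers. Vehicle animals spread widely, and both TM groups lay below both vehicle groups. Csad changed by -2.45 ± 0.52 in wild-type livers (adjusted p = 0.0147, and 0.0639 without vehicle animal 2). In Atf6a-/- livers the fall was of like size (-2.496 ± 0.52, adjusted p = 0.00296), and the difference between them was -0.05 ± 0.74 (95% interval -1.67 to 1.57). Cdo1, for cysteine dioxygenase, measured 13.21, 13.01 and 13.13 in wild-type vehicle, 12.37, 11.87 and 12.30 in wild-type TM, 13.59, 13.25 and 12.87 in Atf6a-/- vehicle and 13.16, 12.86 and 13.28 in Atf6a-/- TM livers. Here the wild-type TM animals lay below all others, and the Atf6a-/- TM animals overlapped their vehicle group. Cdo1 fell 1.92-fold in wild-type livers (-0.94 ± 0.19, adjusted p = 0.00953) and differed by -0.14 ± 0.19 in Atf6a-/- livers (95% interval -0.54 to 0.27, adjusted p = 0.663).

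**Figure D3:**
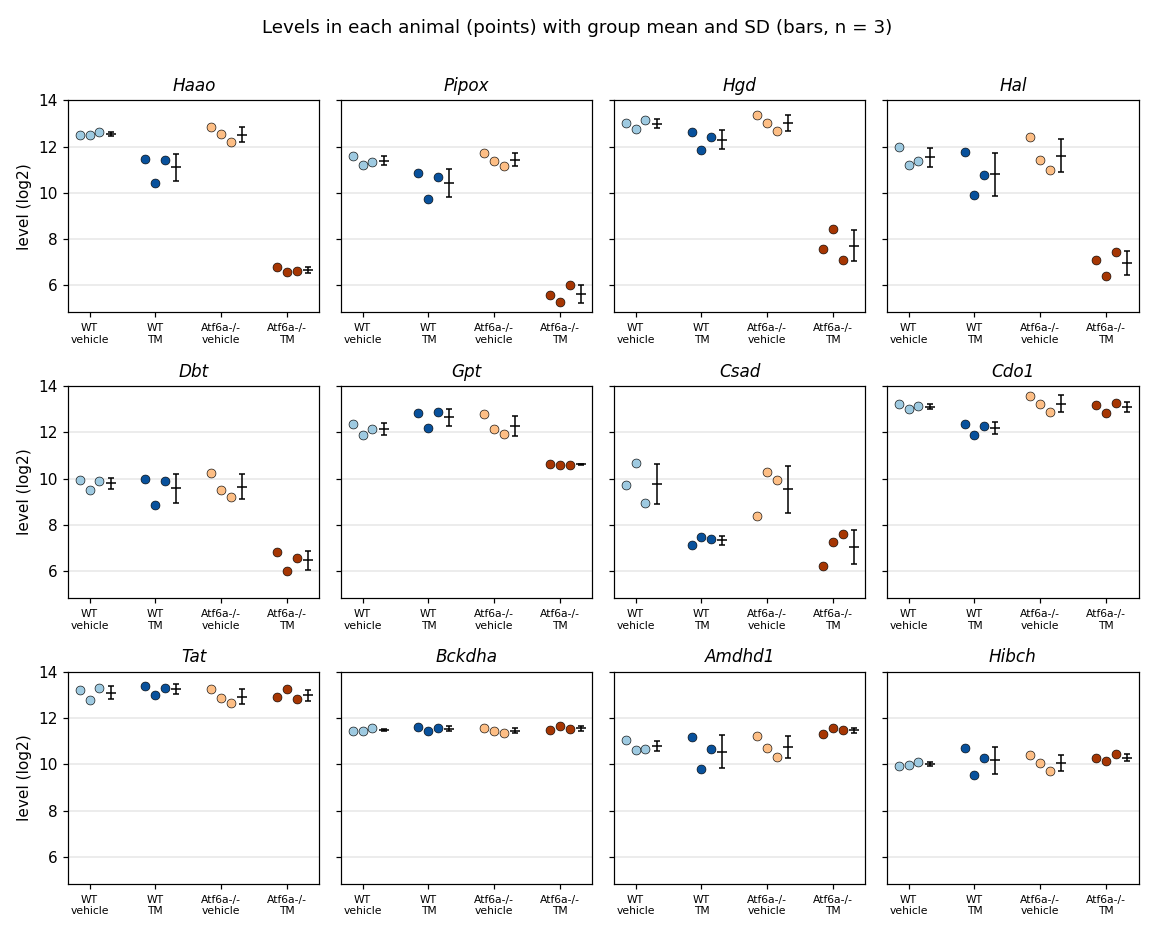
Log2 level (vertical axis) of 12 enzyme genes in the 4 groups, with a point per animal and bars for the group mean and SD (n = 3). Haao, Pipox, Hgd, Hal, Dbt and Gpt are lowest in Atf6a-/- TM livers, Csad is low in both TM groups, and Cdo1 is lowest in wild-type TM livers. Amdhd1 is highest in Atf6a-/- TM livers. Tat and Bckdha overlap across groups, and Hibch overlaps between TM and vehicle within each genotype.

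Without TM no enzyme separated the genotypes. Of the 38 enzymes 0 were called between Atf6a-/- and wild-type vehicle livers, and 0 had an unadjusted p under 0.05, as 2.74% of all genes did. The differences ran from -0.33 to 0.37 with a median of -0.02, and for 0 of 38 the groups were free of overlap, as they were for 8.09% of all genes. In the same comparison 0% of all genes were called higher and 0.0055% lower, which is 1 gene, Atf6.

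After TM 27 of 38 enzymes were lower and 1 was higher in Atf6a-/- than in wild-type livers, with a median of -1.17 against 0.00 for all genes. By the methods' t-test after Benjamini-Hochberg adjustment 6 were called, all lower. Over all genes 8.45% were called lower and 11.3% higher. Pipox, Hgd, Haao and Afmid differed most, by -4.79 ± 0.28, -4.58 ± 0.31, -4.44 ± 0.24 and -4.41 ± 0.32. The 1 higher gene was Cdo1 (0.92 ± 0.19, 1.89-fold, adjusted p = 0.00384), which was 0.49 with the arrays set on Btf3 and Ppia and then not called. Amdhd1 was also higher, by 0.92 ± 0.31, without passing the test (adjusted p = 0.0589, and 0.0119 without wild-type TM animal 1 and 0.0468 without Atf6a-/- vehicle animal 1). Leaving out wild-type TM animal 2 brought calls of lower levels for Ftcd (adjusted p = 0.00305), Gpt2 (0.0175) and Dmgdh (0.0106), the last also without Atf6a-/- TM animal 3 or Atf6a-/- vehicle animal 1 or 3 (up to 0.0394). For Csad the genotypes overlapped after TM (-0.29 ± 0.52). Calls of Acadsb, Kmo and Mccc1 were each lost without wild-type TM animal 1 or 3, those of Kmo and Mccc1 also without Atf6a-/- TM animal 2 or 3, and that of Mccc1 without Atf6a-/- TM animal 1 (adjusted p up to 0.0569, 0.0816 and 0.134).

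The test of the difference between the responses called 21 of the 38 enzymes, all with the lower value in Atf6a-/- livers, with a median of -1.22 against 0.01 over all genes. Among all genes 6.69% were called lower and 7.56% higher in this test. By pathway these were 3 of 4 aromatic, 4 of 5 tryptophan, 1 of 4 histidine, 2 of 4 alanine and proline, 5 of 12 branched-chain, 2 of 2 lysine, 4 of 5 glycine and 0 of 2 cysteine genes. Pipox had the most negative interaction (-4.84 ± 0.39, adjusted p = 2.53e-05), followed by Hgd (-4.61 ± 0.43) and Haao (-4.42 ± 0.34). Kmo, Uroc1, Prodh, Mccc1, Acadsb, Pcca, Dmgdh and Csad fell in Atf6a-/- livers with an interaction that was not called, so by these probe sets a difference in response was not shown for the 8. The second probe set of Uroc1 had an interaction of -4.75 ± 0.27 (adjusted p = 2.08e-06), and the first was called without Atf6a-/- TM animal 1 (adjusted p = 0.0207) or Atf6a-/- vehicle animal 3 (0.0451). Interactions of Aass and Hibadh were lost without 1 of 10 arrays (adjusted p up to 0.0825 and 0.126, kept without wild-type TM animal 2 or Atf6a-/- vehicle animal 3), that of Agxt without wild-type vehicle animal 2, wild-type TM animal 1 or 3, Atf6a-/- vehicle animal 1 or Atf6a-/- TM animal 2 or 3 (up to 0.0778), those of Aldh6a1, Gcsh and Ivd without wild-type TM animal 3 and those of Aldh6a1 and Gcsh also without wild-type vehicle animal 2, and that of Aldh6a1 without Atf6a-/- TM animal 1 (up to 0.0578). Without wild-type TM animal 2, interactions of Acadsb, Ftcd, Kmo, Pcca and Prodh were called lower (adjusted p 0.00529 to 0.0349), that of Prodh also without Atf6a-/- TM animal 3 (0.0406). Without Atf6a-/- vehicle animal 1 the interaction of Cdo1 was called higher (0.98, adjusted p = 0.0284). The 5 comparisons share groups and are not independent of each other.

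**Figure D4:**
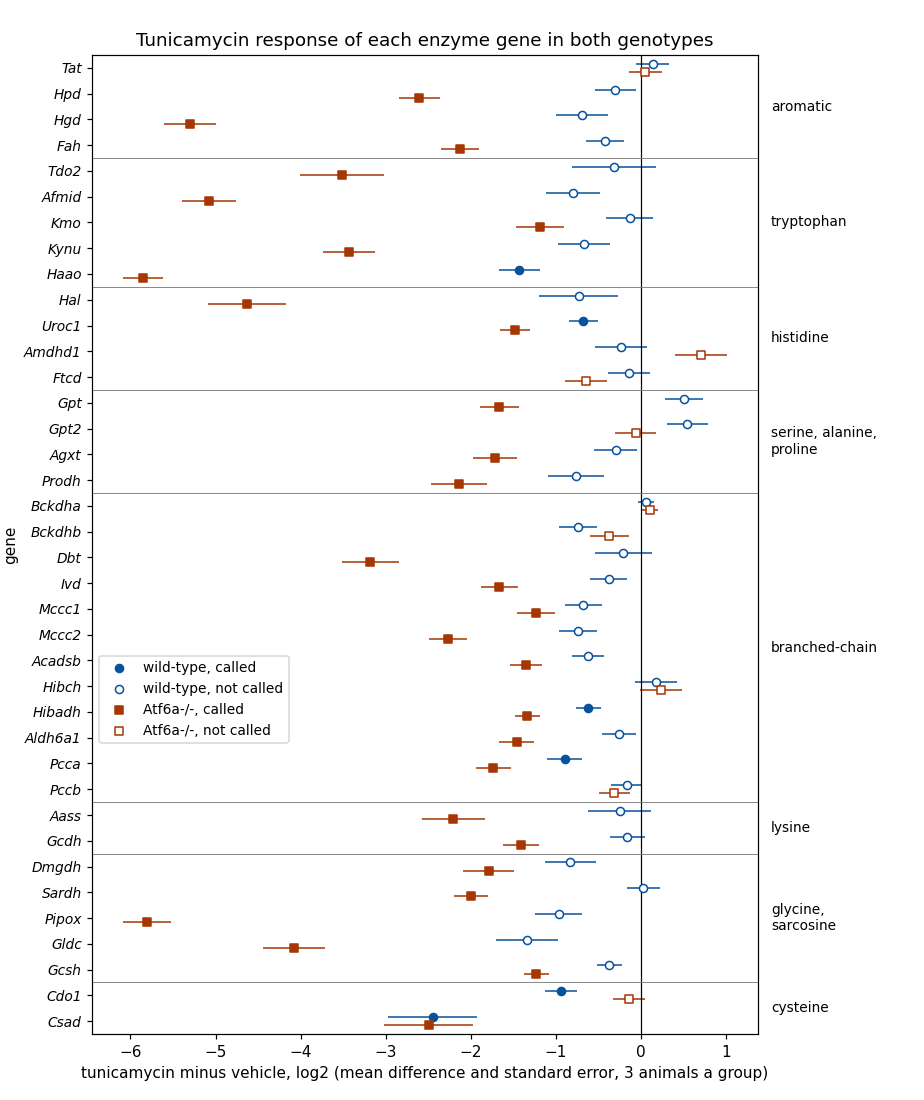
TM minus vehicle log2 difference of each enzyme (horizontal axis, point with SE, 3 animals a group) in wild-type (circles) and Atf6a-/- livers (squares), with filled symbols for called changes and pathways down the vertical axis. Squares lie to the left of circles for most genes, down to -5.85 for Haao, and the symbols lie close together for Csad, Tat and Bckdha.

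Other genes of the same and neighbouring routes were counted over a wider list of catabolic genes. In Atf6a-/- livers 40 of 61 fell and 4 rose (median -1.26), and in wild-type livers 11 fell and 2 rose (median -0.35). Over all genes 12.8% fell and 15.2% rose in Atf6a-/- livers, and 3.86% fell and 3.45% rose in wild-type livers. Dpys, for dihydropyrimidinase, and Hao1, for the oxidase that makes glyoxylate, had Atf6a-/- TM means of 4.23 and 4.56, below 4.71, the highest array median, so that only a bound could be given. Against that median they were at least 85.5-fold and at least 91.9-fold lower. Aldh1l1, for a folate dehydrogenase, fell by 5.49. Aspg, for an asparaginase, fell by 5.17. The genes that rose in Atf6a-/- livers were Kyat1 (1.43 ± 0.36), for a kynurenine aminotransferase, Maoa (1.35 ± 0.21), for monoamine oxidase A, Phykpl (1.06 ± 0.20), for phosphohydroxylysine breakdown, and Bckdk (0.78 ± 0.15), for the kinase that inactivates the branched-chain keto acid dehydrogenase. Kyat1 rose in wild-type livers as well (1.34 ± 0.36), and the other gene that rose there was Kyat3 (1.05 ± 0.24), for a second kynurenine aminotransferase, which differed by -0.64 ± 0.24 in Atf6a-/- livers without being called. Maob, for monoamine oxidase B, moved the other way from Maoa and fell by 4.74.

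Known regulators of these genes were measured alongside, with 8 of 12 lower and 2 higher in Atf6a-/- livers, and 4 lower and 1 higher in wild-type livers. The shares of all genes were 12.8% lower and 15.2% higher in Atf6a-/- livers, and 3.86% and 3.45% in wild-type livers. Ppara, for the fasting-responsive nuclear receptor, fell in both genotypes, with a change of -1.20 ± 0.18 in wild-type livers and of -4.91 ± 0.18 without ATF6a. Cebpa, for a hepatocyte transcription factor, changed by -1.26 ± 0.24 and -3.42 ± 0.24 in that order. Ddit3, for CHOP, a transcription factor of ER stress, was higher by 4.25 ± 0.54 in wild-type and 6.38 ± 0.54 in Atf6a-/- TM livers. The difference between these 2 responses was not called (2.14 ± 0.76, adjusted p = 0.108). Its wild-type TM animals stood at 9.81, 12.87 and 10.89, and the genotypes overlapped after TM. Ppargc1a, for a coactivator of fasting metabolism, was below the highest array median in Atf6a-/- TM livers, so that it was at least 6.16-fold lower. Cebpb and Foxa2 were not called in either genotype.

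Markers of liver cell types moved as well. Among all genes 12.8% fell and 15.2% rose in Atf6a-/- livers, and 3.86% and 3.45% did in wild-type livers. In Atf6a-/- livers 6 of 9 hepatocyte markers fell, and their summed linear signal was 83876 to 101800 after TM and 160380 to 185690 after vehicle, while in wild-type livers 3 of 9 fell and the sums were 125400 to 153840 and 176620 to 184640. Apoc3 fell most (-5.08 ± 0.22), followed by Apoa2 (-2.13 ± 0.17), Apoa1 (-1.86 ± 0.19), Hnf4a (-1.18 ± 0.16), Fgb (-1.17 ± 0.13) and Ttr (-0.76 ± 0.10). Alb (-0.48 ± 0.10), Ahsg (-0.06 ± 0.15) and Rbp4 (0.11 ± 0.11) were not called, and means of all 9 in Atf6a-/- TM livers lay between 9.22 and 14.37. Neutrophil markers S100a8 and S100a9 rose in Atf6a-/- livers (2 of 5 markers, summed signal 650.5 to 2612 against 209.5 to 236.0). Of 9 Kupffer cell and macrophage markers 4 fell and 2 rose (3269 to 3991 against 4483 to 6463), of 7 endothelial markers 3 fell and 0 rose (1104 to 1409 against 1717 to 2292), and 0 of 7 lymphocyte and 0 of 4 cholangiocyte markers were called. Of stellate cell markers 1 of 7 fell (3039 to 3716 against 2952 to 3924) and of red cell markers 1 of 3 (121.3 to 194.4 against 381.7 to 1092). Several of these sums shifted in wild-type livers too. There 1 of 5 neutrophil markers rose (368.1 to 622.9 against 232.5 to 265.7). Of Kupffer cell and macrophage markers 3 fell and 1 rose (2683 to 3462 against 4267 to 5187). Of endothelial markers 0 of 7 were called in wild-type livers (1242 to 1371 against 1716 to 1997), as were 0 of 7 stellate cell and 0 of 3 red cell markers. The part of these shifts in the enzyme results was not tested.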

How the data were processed

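Each of 12 Affymetrix arrays held the liver RNA of 1 mouse, so that p-values rest on 3 animals a group. The deposited values were log2 probe set levels made by the authors with RMA, which corrects background, sets all arrays to 1 distribution and sums probes by median polish. The submitters' processing notes name affy and limma, and their versions are not given in the sources used here. Arrays carry no read depth, and their number limits the precision. Probe sets were named from the platform annotation: 34945 had 1 gene symbol, 932 several and 9160 none. The 64 control probe sets were left out, and 45037 were fitted with limma 3.58.1 in R 4.3.3, with 1 mean per group over all 12 arrays, two-sided tests and Benjamini-Hochberg adjustment. A gene stood as its single-symbol probe set of highest mean, and genes were called at an adjusted p under 0.05 and over 1.5-fold. The fit was tested on simulated data. Intervals are 95% from the moderated fit. Full values were given for up to 3 enzymes per pathway with the largest change in Atf6a-/- livers and for called enzymes of opposite direction. Those of Tat, and single values of Bckdha and of the second Uroc1 probe set, were added after their values were seen. Members and lists were chosen with earlier results of these data known. The alternatives tried were other normalizations, a filter on dim probe sets, means of probe sets, other variance models, fits on the compared groups alone, the methods' t-test, a replicate block, Xist as a covariate, no fold minimum and leaving out each animal. Promoter windows were taken from RefSeq on GRCm38.p6.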

Additional observations from a re-analysis of the deposited data

Results flagged for a closer look

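For 21 enzymes the TM response differed between the genotypes by the limma test of the difference itself, each with the lower value in Atf6a-/- livers (Atf6a-/- response minus wild-type response, log2). In the aromatic route these were Hgd at -4.61, Hpd at -2.31 and Fah at -1.70. In the tryptophan route they were Haao at -4.42, Afmid at -4.28, Tdo2 at -3.20 and Kynu at -2.76, and in the histidine route Hal at -3.90. Gpt stood at -2.17 and Agxt at -1.42. Branched-chain genes were Dbt at -2.97, Mccc2 at -1.53, Ivd at -1.29, Aldh6a1 at -1.20 and Hibadh at -0.71. The lysine genes were Aass at -1.96 and Gcdh at -1.25. Among glycine and sarcosine genes were Pipox at -4.84, Gldc at -2.74, Sardh at -2.02 and Gcsh at -0.86. Adjusted p-values ran from 1.67e-05 for Haao to 0.0482 for Hibadh. Groups of 3 animals were not tested for outlying samples.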

How the results depend on the processing

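No enzyme's called change turned its direction under any alternative. The count of enzymes called in wild-type livers, 6, was 10 with only probe sets above the median of all values, 0 by the methods' t-test after Benjamini-Hochberg adjustment (8 at their unadjusted threshold) and 3 to 8 with 1 animal left out. For Atf6a-/- against wild-type livers after TM the count of 28 became 6 by the methods' t-test after adjustment (27 unadjusted), and 25 to 31 with 1 animal left out. That test had 4 residual degrees of freedom, and the cause of the difference was not tested. In Atf6a-/- livers the count of 29 ran from 27 to 33 over all alternatives, and no member's call was lost when 1 animal was left out. Interactions called were 15 to 26 with 1 animal left out. With the arrays set on Btf3 and Ppia the median of all genes moved to -0.53 in Atf6a-/- livers, where 33 enzymes were lower, and with the spike-in controls the interaction called 1 higher and 19 lower. The labels give no meaning to the animal numbers, and they were not taken to pair the samples: over 18 same-number pairs correlations of deviations ran from -0.18 to 0.373, with 8 over 0.1, against 5 of 36 pairs of different number. Animal 1 was the one high in Xist in the 3 groups that had one. With the replicate block 8, 30, 29, 0 and 23 enzymes were called in the wild-type response, the Atf6a-/- response, the genotypes after TM, the genotypes after vehicle and the interaction. Between the genotypes after vehicle 0 were called under each alternative. Shares of all genes called are not given for the alternatives, so their counts of enzymes stand without a background.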
